A study of Rattus norvegicus with 13 samples.

Results

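The glutaredoxins and the thioredoxin system were followed in the rat thyroid through 9 genes, Glrx, Glrx2, Glrx3, Glrx5, Txn1, Txn2, Txnrd1, Txnrd2 and Txnip. The genes were chosen by name with earlier results of these data known, among them that the Glrx2 probes differ in direction between the groups. Every probe that the array names for them was kept, which gave 14 of the 45598 probes on the array and 9 of its 36174 gene names. RNA was measured in the thyroid of 13 male Wistar rats on one-colour Agilent arrays, with 6 animals in the KI-treated group and 7 in the control group. KI-treated animals were born to dams that received 1 mg/kg potassium iodide (KI) by gavage, and control animals to dams that received 0.9% NaCl, for 8 days from gestational day 9. The progeny themselves received neither solution, and gene expression was measured 51 days after birth. The question of the comparison was whether exposure to KI before birth left a difference in thyroid gene expression of the progeny. Each array was taken to be 1 animal. Litters are not named, so animals of 1 dam may be among the replicates, and p-values then cover only the spread between these arrays.

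Glutaredoxins and thioredoxins are small proteins that reduce disulphide bonds in other proteins. Glutaredoxins are recharged by glutathione, and thioredoxins by the selenium-containing thioredoxin reductases, which use NADPH. Glrx and Glrx2 are dithiol glutaredoxins of the cytosol and of the mitochondrion and nucleus. Glrx3 and Glrx5 take part in handling iron-sulphur clusters. Txn1 and Txnrd1 work in the cytosol, Txn2 and Txnrd2 in the mitochondrion, and Txnip binds thioredoxin and holds back its activity. The thyroid makes hydrogen peroxide to couple iodide to thyroglobulin, and thiol systems of this kind help cells to remove the excess.

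The probes are single strands of 60 bases, and the Glrx2 and Txn1 probes are shown because probes of these genes differed from one another. Coordinates are those of the array files, on the rat build rn4. Exons and untranslated regions were not assigned, since no annotation of that build was used here. The first Glrx2 probe lies at chr13:57574487-57574546 on the plus strand, from position 365 of the Glrx2 transcript that the array cites, and 1 of its 3 reading frames is open throughout.

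A_44_P442169: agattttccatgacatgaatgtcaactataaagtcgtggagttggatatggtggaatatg

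The other Glrx2 probes lie downstream on the same strand, and none of their frames is open, so only the first 30 bases of each are given. Probe A_44_P1083227 lies at chr13:57576898-57576957, 2411 bases downstream of the first probe and at position 684 of the same transcript. Probe A_44_P1148562 lies at chr13:57584892-57584951, 10405 bases downstream, and is assigned by the array to a predicted non-coding transcript of the gene. Between them, at chr13:57577878-57577937, lies probe A_44_P1153249, which the array describes as Glrx2 but lists under a transcript number, so it fell outside the choice by name.
A_44_P1083227: acatcccaacctatgaactataagaagtcc
A_44_P1153249: gaaggctcaagaatatggaaggtaacaggg
A_44_P1148562: atgggtagctcctagatatactatgcttgc

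For Txn1, probe A_42_P689013 lies on the minus strand, the strand of the gene in RefSeq (assembly GRCr8), and its ends are 1341 bases apart at chr5:75921410-75922750, so its 60 bases come from separate pieces of the genome. Probe A_44_P559392 lies next to it at chr5:75921351-75921410 but on the plus strand, so it reads the strand opposite to the gene. Whether it measures an antisense RNA or is a probe placed in the wrong orientation cannot be told from the files, and its values below carry that doubt. Its reverse complement shares 1 base with the end of the first probe and carries the reading frame on to a stop codon after 30 codons, counted from the start of the first probe, and the complement of that stop is in capitals.
A_42_P689013: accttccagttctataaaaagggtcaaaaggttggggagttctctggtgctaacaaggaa
A_44_P559392: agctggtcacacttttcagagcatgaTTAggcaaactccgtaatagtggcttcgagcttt

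Each array had 58717 gene spots, of which 34840 to 41050 were well above background by the scanner software's own test, and no gene spot was saturated. The arrays lay on 6 slides scanned on 3 days. Each scan day held both groups, with 2, 3 and 1 KI-treated arrays and 2, 2 and 3 control arrays on the 3 days in order. Control arrays 4 and 6 had the lowest 75th percentiles of signal, 10.5 and 10.3 on the log2 scale against 10.6 to 11.3 on the other arrays, and both were scanned on the first day. They were the only control arrays of that day and of their slides, slides 1 and 2. They stood apart for several genes below, and values without them are given beside those results. Of the markers of thyroid follicular cells, 10 of 10 were measured, among them Tg, which encodes thyroglobulin, at 7.90 ± 0.15 (SD, n = 6) on the KI-treated arrays and 8.09 ± 0.13 (SD, n = 7) on the control arrays. All levels here are log2 signal minus the 75th percentile of the same array. Of the parathyroid markers, Pth was at 6.42 and 6.59 in the KI-treated and control groups, a difference of -0.16, while Casr differed by 0.12 and Gcm2 by 1.17 (SE 0.36, adjusted p = 0.440 by limma). Of the C cell markers, Calca was at 4.97 and 4.75, a difference of 0.23, while Calcb differed by -0.10 and Chga by 0.66 (SE 0.25, adjusted p = 0.440 by limma). Among these, Gcm2 and Chga passed 0.05 before adjustment. Skeletal muscle markers were lower in the KI-treated group for 6 of 6 genes, with a median difference of -1.06 and mean levels over the list of -4.64 to -0.75 against -2.49 to 1.36 in the control group. Blood markers were higher for 3 of 3 genes, at -0.31 to 0.51 against -0.84 to -0.00. Lymphocyte, adipocyte, cartilage and nerve lists moved by medians of 0.34, -0.16, -0.20 and 0.05, and Cd3e and Cd3g were below the limit for testing, which was a signal well above background on 6 or more arrays. The part of other tissues in the results was not tested, and fewer cells of a type cannot be told apart from less RNA per cell in such bulk samples.

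Among the glutaredoxin and thioredoxin genes other than Glrx2, no difference between the KI-treated group and the control group passed the test. The folds of KI-treated over control for all 14 probes ran from 0.792 for a Glrx5 probe to 1.50 for Glrx2 and Txnrd2. Leaving aside Glrx2, which was known beforehand and is only described, 0 of the 11 probes of the other 8 genes passed the threshold of 0.05 with limma and Benjamini-Hochberg adjustment over all probes, and 0 passed before adjustment. Over the 25703 probes tested, 0.0% passed with adjustment and 11.3% without, the latter being 1790 probes with a higher and 1108 with a lower mean after KI. This balance turned with some of the processing choices. It was 1312 higher and 2460 lower with normexp and the 75th percentile, and 1469 and 1801 with the percentile taken over probe averages. With normexp and quantile normalization it did not turn, at 1885 higher and 1400 lower. Without control arrays 4 and 6 it was 951 and 1412 (959 and 1291 without control array 6 alone). The smallest adjusted p of any probe was 0.415 by limma. Of these 11 probes, 7 had a higher mean in the KI-treated group and 4 a lower one, beside 50.2% higher over all tested probes. The higher ones numbered 6 with normexp and the 75th percentile or with the percentile over probe averages, and 7 with normexp and quantile normalization. The median log2 difference of the 11 probes was 0.14, against 0.00 over all tested probes. The groups overlapped for 14 of the 14 probes, Glrx2 included, and 0.447% of all tested probes had groups that did not overlap.

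**Figure D1:**
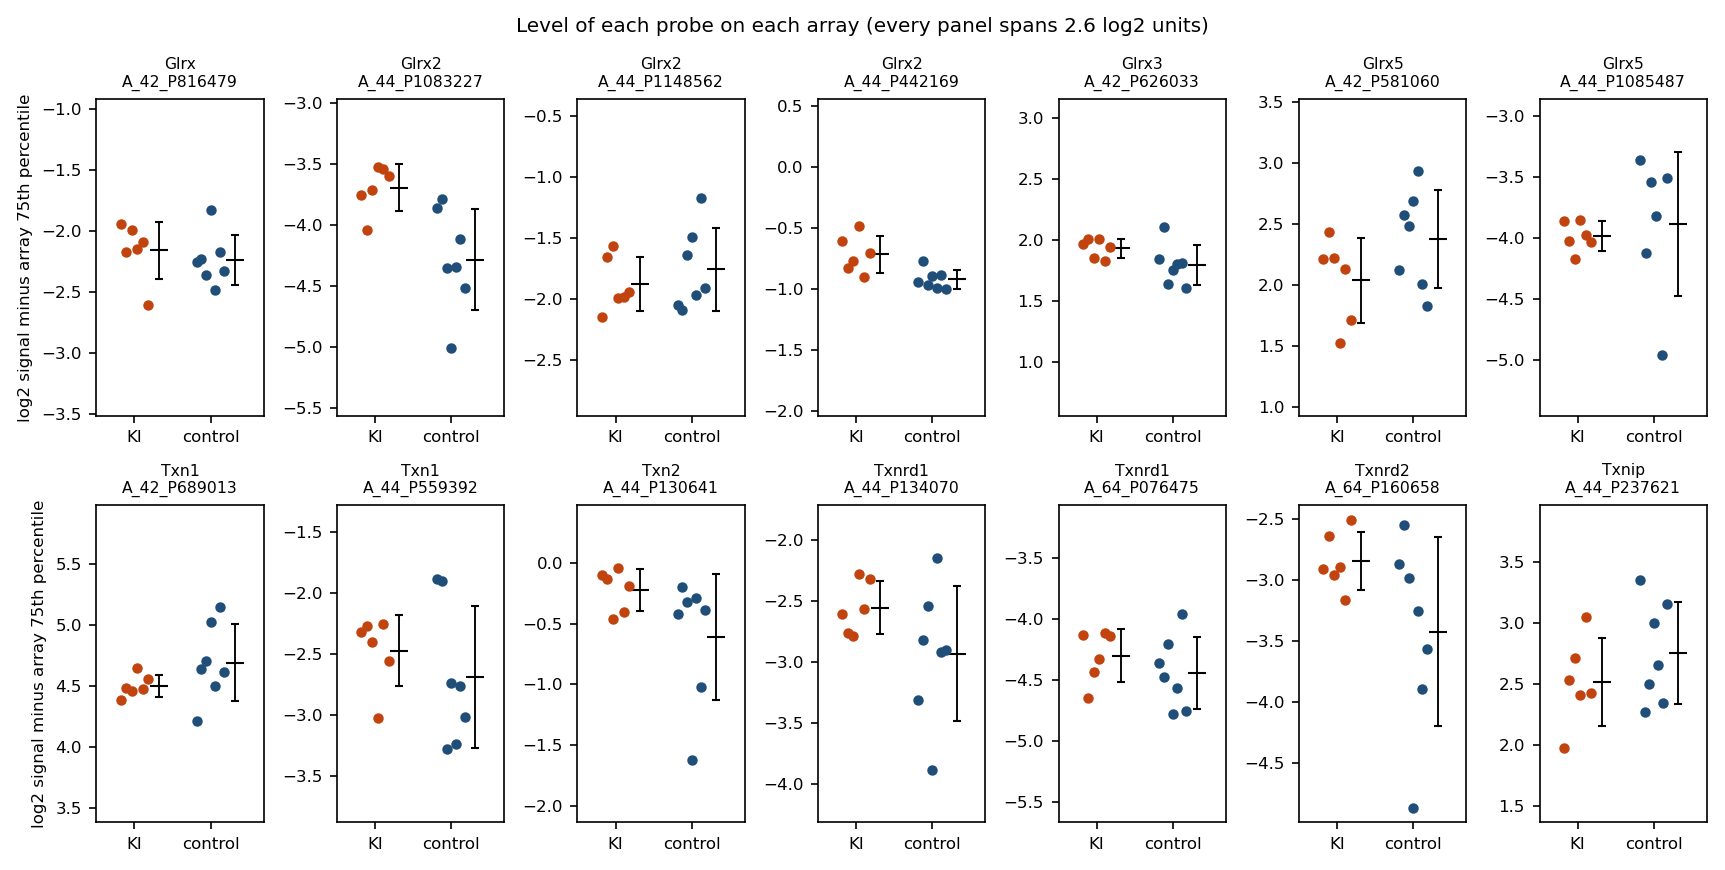
Level of each of the 14 probes (log2 signal minus the array's 75th percentile, vertical axis) in the 6 KI-treated (red) and 7 control (blue) arrays, with the mean and SD of each group in black. The groups overlap in every panel, and for Txn2 and Txnrd2 control arrays 4 and 6 lie below the rest.

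Glrx2, the glutaredoxin of the mitochondrion and nucleus, was measured by 3 probes with different patterns, given here as a description with no test. On A_44_P442169 the KI-treated arrays ran from -0.91 through a median of -0.74 to -0.48, and the control arrays from -1.002 through -0.94 to -0.77. All 6 KI-treated arrays were above the control median and 3 were above every control array, and the log2 difference was 0.20 (SE 0.09). On A_44_P1083227 the KI-treated arrays ran from -4.04 through -3.66 to -3.53, and the control arrays from -5.01 through -4.35 to -3.79. Here 5 of the 6 KI-treated arrays were above every control array, KI-treated array 2 being the exception, and the difference was 0.59 (SE 0.18), a fold of 1.50. It was 0.32 with normexp and 0.39 in the deposited log2 values. The probe assigned to the non-coding transcript, A_44_P1148562, went from -2.15 through -1.96 to -1.56 in the KI-treated group and from -2.09 through -1.91 to -1.17 in the control group. Its groups lay over each other, with a difference of -0.12 (SE 0.16), which became 0.05 without control arrays 4 and 6, the arrays with its highest levels. Without those arrays the other differences were 0.22 and 0.48. The probe outside the choice by name, A_44_P1153249, had a difference of 0.03 (SE 0.12).

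Of the 3 Glrx2 probes, A_44_P1148562 differed from the other two across arrays. Pearson's r over the 13 arrays was 0.62 between A_44_P442169 and A_44_P1083227, which share a transcript, and -0.29 and -0.45 between each of these and A_44_P1148562. Probe A_44_P1153249 had r of 0.09, 0.14 and 0.20 with the others. Such r values describe arrays that share the 2 groups and 1 scaling. Within each of the 3 scan days the KI-treated mean was the higher one for A_44_P442169, by 0.09, 0.12 and 0.50, and for A_44_P1083227, by 0.68, 0.19 and 0.88. It was also the higher one on 5 of the 5 slides that held both groups, for both probes. Control arrays 4 and 6 were the only control arrays of the first day and of slides 1 and 2. The directions of the Glrx2 probes were known when the genes were chosen, so their signs within days and slides are a description and no further support. Over all tested probes, 30.3% had the same direction on each of the 3 scan days, a share that cannot be used to judge probes known beforehand. The share for slides was not counted. For A_44_P1148562 the scan days gave -0.28, 0.04 and -0.15.

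**Figure D2:**
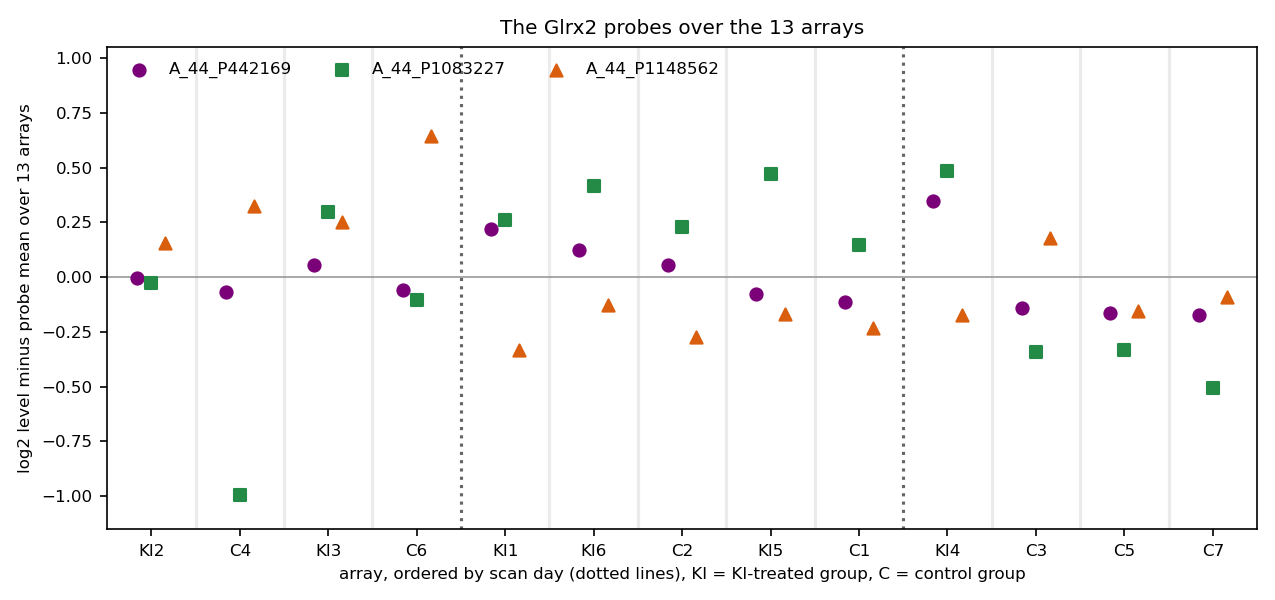
Level of the 3 Glrx2 probes on each of the 13 arrays, as log2 level minus the probe's own mean (vertical axis), with arrays in order of scan day. A_44_P1083227 is lowest on control array 4, and A_44_P1148562 is highest on control array 6.

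The other glutaredoxins showed no difference that passed the test. Glrx, the cytosolic glutaredoxin, ran from -2.61 through -2.12 to -1.95 in the KI-treated group and from -2.49 through -2.26 to -1.83 in the control group. The log2 difference was 0.08 (SE 0.13, and -0.00 with the percentile over probe averages), with an adjusted p of 0.807 by limma and an exact two-sided permutation p of 0.535. Control array 4 had the highest level, and without control arrays 4 and 6 the difference was 0.17. It was also 0.17 without KI-treated array 6, the lowest of all. Glrx3, which takes part in handling iron-sulphur clusters in the cytosol, went from 1.82 through 1.95 to 2.00 in the KI-treated group and from 1.60 through 1.80 to 2.10 in the control group. All 6 KI-treated arrays were above the control median, but control array 2 was the highest of all, and the difference was 0.14 (SE 0.09, adjusted p = 0.533 by limma, exact permutation p = 0.0880). On the second scan day the Glrx3 difference was -0.06, against 0.14 and 0.32 on the others.

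Glrx5, the mitochondrial glutaredoxin of iron-sulphur cluster assembly, had 2 probes, and all 6 KI-treated arrays lay below the control median on each. On A_42_P581060 the levels ran from 1.52 through 2.18 to 2.44 in the KI-treated group and from 1.83 through 2.49 to 2.93 in the control group. The KI-treated group was lower by a log2 difference of -0.34 (SE 0.20, adjusted p = 0.490 by limma, exact permutation p = 0.136), and the scan days gave -0.02, -0.33 and -0.89. Probe A_44_P1085487, which lies further downstream in the transcript, ran from -4.17 through -4.00 to -3.85 in the KI-treated group and from -4.96 through -3.68 to -3.36 on 6 control arrays. Control array 3 was left out for this probe, since its spot was marked as an outlier by the scanner software. The difference was -0.10 (SE 0.23, adjusted p = 0.863 by limma, exact permutation p = 0.727), and without control array 6, the lowest of all, it was -0.31. The r between these probes over 12 arrays was 0.09.

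Txn1, the cytosolic thioredoxin, was printed at 10 spots per array for A_42_P689013. The SD of log2 signal between these spots of 1 array was 0.04 to 0.09, with a median of 0.07, whereas the SD between the 13 arrays was 0.25. The KI-treated arrays lay close together, from 4.39 through 4.48 to 4.65, and inside the control range of 4.22 through 4.64 to 5.15. Control arrays 4 and 6 were the highest at 5.02 and 5.15. The difference was -0.19 (SE 0.14, adjusted p = 0.553 by limma, exact permutation p = 0.196), and without these arrays it was -0.03. On the first scan day it was -0.61, and on the other days 0.05 and 0.04. The opposite-strand probe A_44_P559392 had levels of -3.02 through -2.36 to -2.26 in the KI-treated group and of -3.28 through -2.76 to -1.88 in the control group. Its difference was 0.22 (SE 0.25, adjusted p = 0.703 by limma, exact permutation p = 0.417), and with scan day as a block it was -0.02. The r between the probes of the 2 strands was -0.43 over 13 arrays.

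Txn2, the mitochondrial thioredoxin, ran from -0.46 through -0.16 to -0.04 in the KI-treated group and from -1.62 through -0.39 to -0.20 in the control group on probe A_44_P130641. Here 4 of the 6 KI-treated arrays were above every control array, while control arrays 4 and 6 were far below the rest at -1.62 and -1.02. The difference was 0.39 (SE 0.21, adjusted p = 0.469 by limma, exact permutation p = 0.0932), and 0.10 without these arrays. A probe that the array describes as mitochondrial thioredoxin under a transcript number, A_43_P12770, had a difference of -0.03 (SE 0.09), and its r with A_44_P130641 was -0.46.

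**Figure D3:**
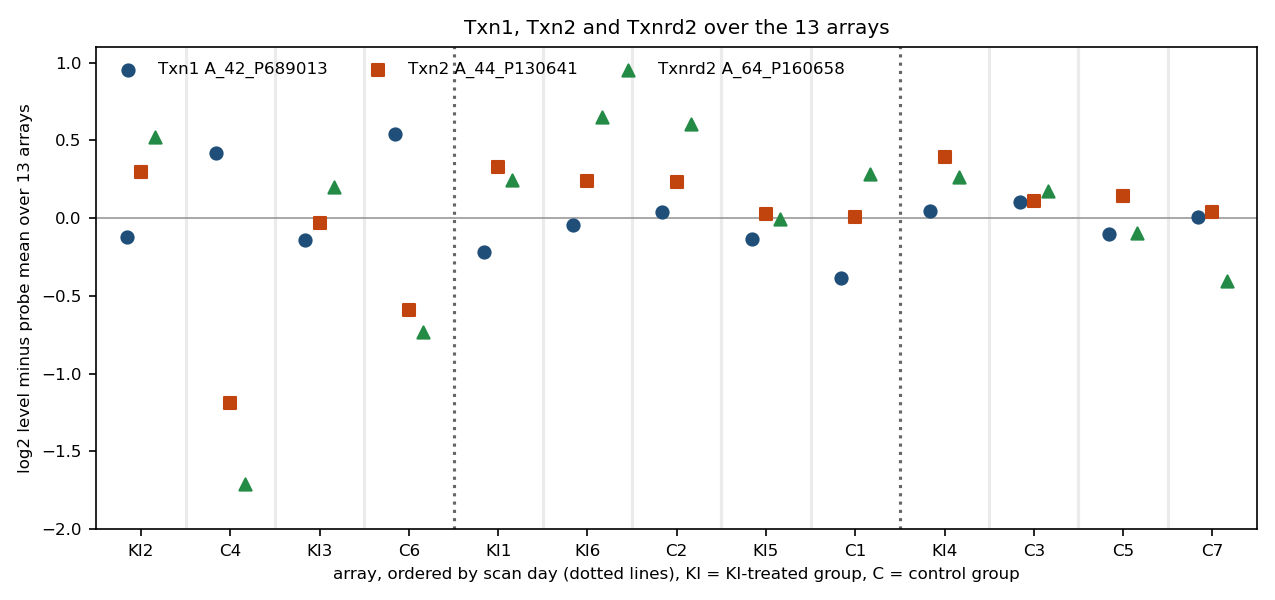
Levels of Txn1, Txn2 and Txnrd2 on each array, as log2 level minus the probe's own mean over the 13 arrays (vertical axis), with arrays in order of scan day. On control arrays 4 and 6 Txn1 is highest and Txn2 and Txnrd2 are lowest.

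Txnrd1, the cytosolic thioredoxin reductase, had 2 probes with r of 0.40 between them. On A_44_P134070 the KI-treated arrays ran from -2.79 through -2.59 to -2.28, all above the control median, and the control arrays from -3.88 through -2.90 to -2.15. The difference was 0.38 (SE 0.23, adjusted p = 0.493 by limma, exact permutation p = 0.147), and 0.19 without control arrays 4 and 6. It was 0.62, 0.56 and 0.25 on the 3 scan days, the first with only control arrays 4 and 6, and above 0 on 5 of 5 slides. With scan day as a block it was 0.51 (SE 0.18, adjusted p = 0.217 by limma). Probe A_64_P076475 went from -4.64 through -4.23 to -4.11 in the KI-treated group and from -4.78 through -4.47 to -3.95 in the control group. Its difference was 0.14 (SE 0.15, adjusted p = 0.678 by limma, exact permutation p = 0.338). This became -0.01 with normexp and the 75th percentile and 0.04 with normexp and quantile normalization.

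Txnrd2, the mitochondrial reductase, ran from -3.17 through -2.90 to -2.51 in the KI-treated group and from -4.87 through -3.25 to -2.55 in the control group. All 6 KI-treated arrays were above the control median and inside a narrow range, and control arrays 4 and 6 were again the lowest at -4.87 and -3.89. The difference of 0.58 (SE 0.30, adjusted p = 0.460 by limma, exact permutation p = 0.0903) was a fold of 1.50. It became 0.20 without them and was 0.33 with normexp. Its scan days gave 1.58, -0.15 and 0.37. The size of the difference with all arrays exceeded that of 92.7% of all tested probes, yet the SD of the control group was 0.78.

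Txnip, the inhibitor of thioredoxin that responds to glucose, ran from 1.98 through 2.48 to 3.05 in the KI-treated group and from 2.27 through 2.66 to 3.36 in the control group. The groups overlapped, with KI-treated array 1 the lowest and control array 1 the highest. The difference was -0.24 (SE 0.21, adjusted p = 0.624 by limma, exact permutation p = 0.298), and the scan days gave -0.05, -0.33 and -0.36. It was -0.13 without KI-treated array 1 and -0.14 without control array 1.

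**Figure D4:**
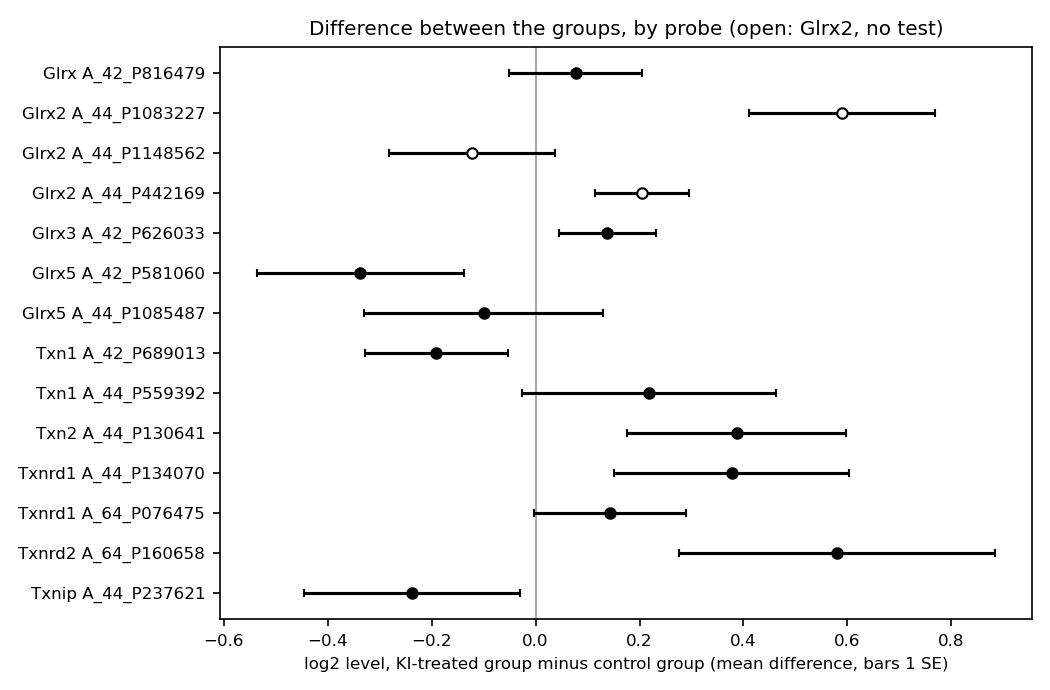
Log2 difference between the KI-treated and control groups (horizontal axis) for each of the 14 probes, with bars of 1 SE, and Glrx2 drawn open because it was not tested. The differences run from -0.34 for Glrx5 to 0.59 for Glrx2, and Txnrd2 has the widest bar.

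Leaving aside Glrx2, the direction was the same on each of the 3 scan days for 4 of the 11 probes, beside 30.3% of all tested probes. It was positive on each day for 2, Txn2 and A_44_P134070 of Txnrd1, and negative on each day for 2, Txnip and A_42_P581060 of Glrx5. Txn2 had differences of 1.02, 0.08 and 0.29 on the 3 days and was higher in the KI-treated group on 5 of 5 slides. Control arrays 4 and 6 were the only control arrays of the first day and of slides 1 and 2. With scan day as a block the Txn2 difference was 0.45 (SE 0.17, adjusted p = 0.225 by limma). With no block and without control arrays 4 and 6 it was 0.10. The remaining 7 of these probes changed sign between days.

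**Figure D5:**
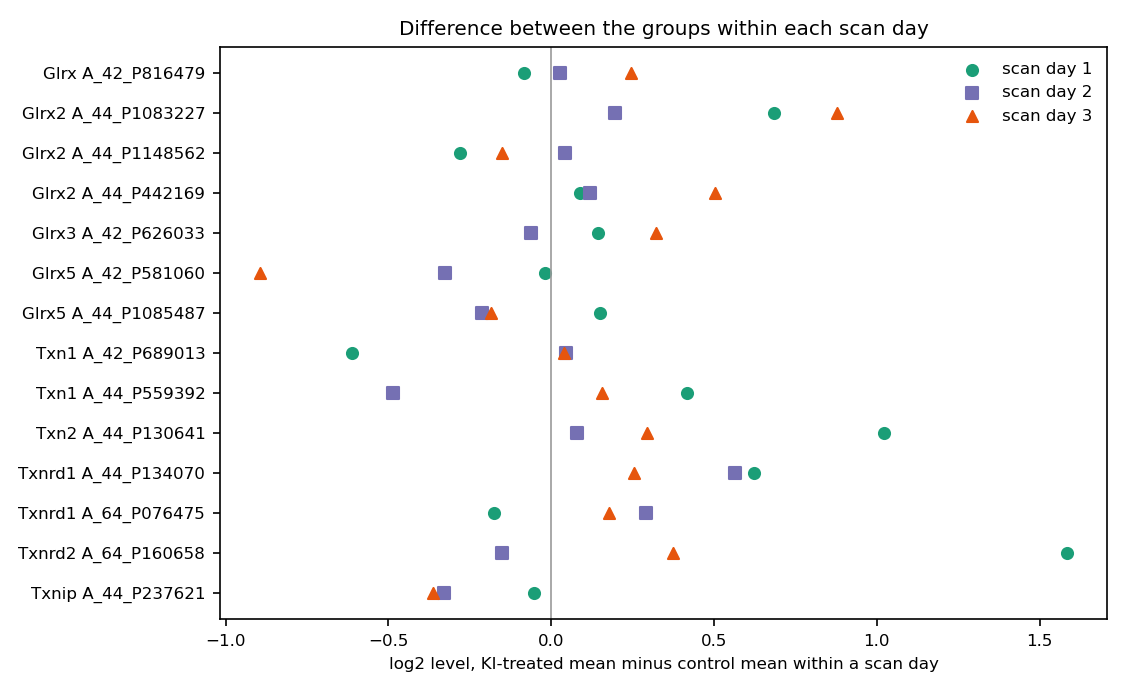
Difference between the mean of the KI-treated and of the control arrays within each of the 3 scan days, on the log2 scale (horizontal axis), for each of the 14 probes. The first day, with control arrays 4 and 6, gives the highest values for Txn2 and Txnrd2 and the lowest for A_42_P689013 of Txn1.

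Likeness across arrays was read for the 36 pairs of genes, taking for each gene the brightest of its probes chosen by name. Probes A_44_P1153249 (Glrx2) and A_43_P12770 (mitochondrial thioredoxin), outside that choice, were brighter but were not used. Their r with the Glrx2 and Txn2 probes used was 0.09 and -0.46. Pearson's r over the 13 arrays was above 0 for 17 pairs and below 0 for 19, and 25 of the 36 kept their sign without control arrays 4 and 6. The order of the pairs depended on the measure and on these arrays, and only some pairs are named here. Txn2, the mitochondrial thioredoxin, and Txnrd2, its reductase, had Pearson's r of 0.92 and Spearman's rho of 0.65 over the 13 arrays, and r of 0.50 over the 11 arrays other than control arrays 4 and 6. Txn1 and Txn2 had r of -0.71 and rho of -0.18, and r of 0.28 over those 11 arrays, so the sign rested on the pair of arrays left out. Glrx2 and Glrx3 had r of 0.72 and rho of 0.82 over 13 arrays and r of 0.71 over 11. Glrx3 and Txnrd2 had r of 0.56 and rho of 0.81, and r of 0.79 over 11 arrays. For Glrx2 and Txn2 r was 0.39 over 13 arrays and 0.74 over 11, and for Glrx2 and Txnip -0.63 and -0.67. For Txn2 and Txnrd1 r was 0.78 over 13 arrays and 0.47 over 11, and for Txn2 and Txnip -0.35 and -0.78. These values describe arrays that share groups, slides and scaling, and are given without a test.

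Genes that work with these systems were read from 5 lists. Of the thiol redox partners, which hold the peroxiredoxins, methionine sulphoxide reductases, ribonucleotide reductase and glutathione synthesis, 18 of 20 genes were tested and 0 passed with limma's adjusted p. There 13 had a higher mean in the KI-treated group and 5 a lower one, with a median difference of 0.14. Before adjustment 4 of the 18 passed, all with the higher mean in the KI-treated group, beside 11.3% of all probes. These were Prdx1 and Prdx3, the peroxiredoxins of the cytosol and the mitochondrion that thioredoxin reduces, Txnl1, a thioredoxin-like protein of the proteasome, and Gss, the glutathione synthetase. Prdx3 ran from 0.09 to 0.34 in the KI-treated group and from -1.29 to 0.25 in the control group, a difference of 0.61 (SE 0.20, adjusted p = 0.440 by limma). Prdx1 differed by 0.46 (SE 0.19), Gss by 0.50 (SE 0.19) and Txnl1 by 0.33 (SE 0.14), each with an adjusted p of 0.440 by limma. For each of the 4, all 6 KI-treated arrays were above the control median, and control arrays 4 and 6 were the lowest of all 13. Without these arrays the differences were 0.35 for Prdx3, 0.23 for Prdx1, 0.25 for Gss and 0.19 for Txnl1.

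In the other lists the medians ran from -0.06 to 0.18. For iron-sulphur cluster assembly, in which Glrx5 works, 11 of 13 genes were tested, 4 with a higher and 7 with a lower mean in the KI-treated group and a median difference of -0.06. For NRF2, the regulator of antioxidant genes, and its targets, 10 of 11 genes were tested, 4 higher and 6 lower, with a median of -0.02. Of the relatives, regulators and binding partners of Txnip, 9 of 10 were tested, 7 higher and 2 lower, with a median of 0.18. The 6 genes of selenocysteine insertion, which the thioredoxin reductases need, had 3 higher and 3 lower and a median of -0.00. In these lists 0 genes passed, with or without adjustment, in limma's test.

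The genes whose levels were most like those of Glrx2 on A_44_P442169, over the 13 arrays and 25640 probes with complete values, were Bzw1 (r = 0.90), Ywhah (r = 0.90), Aldh18a1 (r = 0.89), Dlat (r = 0.86) and Selt (r = 0.86). Dlat encodes a subunit of the mitochondrial pyruvate dehydrogenase complex, and Selt is a selenoprotein. For Txnip these were Morn4 (r = 0.86), Klk1c7 (r = 0.85), Col6a2 (r = 0.84), Zbtb44 (r = 0.84) and Pla2g2e (r = 0.84). The r values rank many probes over few arrays and are a description.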

How the data were processed

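Total RNA of 13 rat thyroids was hybridised to one-colour Agilent arrays, and groups and replicate numbers came from the sample labels. The authors deposited, for each array, the fluorescence intensity of each spot from Agilent Feature Extraction (version 10.7.3.1), background-subtracted and not normalized between arrays. The deposited log2 values of the same arrays rank the spots as the uncorrected median signal does (Spearman 0.999 or more). Their normalization is not given in the sources used here, and they served as an alternative. Here, control spots and spots marked as outliers were left out, and levels were taken as log2 processed signal minus the 75th percentile over the gene spots of the array. Spots of a probe were averaged and every probe was kept apart. Probes with a signal well above background on 6 or more arrays were tested with limma (version 3.58.1, R 4.3.3; lmFit and eBayes, no covariate) and p-values were adjusted by Benjamini-Hochberg, with a threshold of 0.05. The test was also run on simulated data in which the probes varied independently of one another. Departures shared by several genes of an array, as on control arrays 4 and 6, were not simulated. Single probes also had an exact two-sided permutation test over 1716 assignments of arrays (fewer where an array was missing). The text names every probe of the 9 genes, the list genes past 0.05 before adjustment, and the 5 genes most like Glrx2 and Txnip. Members, lists and markers were chosen with earlier results of these data known. Of each list gene, the brightest tested probe was read. Columns of samples outside the series numbered 0. The number of arrays limits the precision. Alternatives were other scalings, background corrections, filters, blocks for slide, scan day and replicate number, array weights, a plain t-test, and each array left out.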

Additional observations from a re-analysis of the deposited data

Results flagged for a closer look

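In the KI-treated group, Glrx stood at -2.61 on KI-treated array 6, far from the nearest other array of the group at -2.18. The gap was 0.651 of the range of the group. This was 1 of 28 groups of arrays examined (14 probes in 2 groups), and chance alone would mark about 1 in 20 groups in this way. Its cause was not tested.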

How the results depend on the processing

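No probe of the 8 genes other than Glrx2 passed the adjusted threshold under any alternative run. Over all probes the adjusted count was 0 except for 7, all lower in the KI-treated group, with array weights and 1 without control array 2 (0 to 1 over the arrays left out in turn). Before adjustment the 2898 calls became 4443 with scan day as a block and 2065 to 4361 with an array left out, the highest without control array 1. Among the 11 probes other than Glrx2, 0 before adjustment became 1 with slide as a block, 2 with scan day as a block, 1 with the replicate block and 0 to 2 with an array left out (1 without control array 1, 5, 6 or 7, 2 without control array 2). Signs turned for Glrx with the 75th percentile over probe averages (-0.00209), Glrx5 A_44_P1085487 with the replicate block (0.0129) and without control array 1 (-0.315 to 0.00554 over the arrays left out), Txn1 A_44_P559392 with scan day as a block (-0.0167) and Txnrd1 A_64_P076475 with normexp and the 75th percentile (-0.00691), and the cause was not tested. The other 358 values of single probes kept their direction and their side of the threshold or, for Glrx2, moved by less than the spread between replicates. Among these Glrx2 values, the sign of A_44_P1148562 turned from -0.12 to 0.05 without control arrays 4 and 6. The share of probes higher in the KI-treated group was 50.2%, against 37.02% with normexp and the 75th percentile, 39.3% with the percentile over probe averages (median of all probes -0.08) and 37.7% with no filter on dim probes (median -0.09). The percentile over probe averages, and leaving out control arrays 4 and 6 together, were chosen after seeing the data. The replicate numbers do not pair the arrays (r of same-numbered deviations -0.11 to 0.07), and the replicate block gave 2112 unadjusted calls over all probes and 0 adjusted. A plain t-test of each probe, with Benjamini-Hochberg adjustment, gave 2653 unadjusted calls and 0 adjusted. The difference of Glrx2 A_44_P1083227 was 0.32 with normexp and 0.59 without, and the cause was not tested.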
